A study of Mus musculus with 6 samples.

Results

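Methylation of histone H3 at lysine 9 (H3K9) marks silent chromatin, and the heterochromatin protein 1 (HP1) family reads that mark. The 10 genes described here, of 53465 in the count table, were picked by symbol: the methyltransferases *Suv39h1*, *Suv39h2*, *Setdb1*, *Ehmt1* and *Ehmt2*, the corepressor *Trim28*, the HP1 genes *Cbx1*, *Cbx3* and *Cbx5*, and the demethylase *Kdm4a*. *Suv39h2* was selected on its measured values in the comparison reported here, lower counts in every quercetin pool, and the other 9 were set beside it as related genes. Its difference between the groups is therefore described without a test.

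Transcripts were measured in metaphase II (MII) oocytes of female Kunming (KM) mice aged 9 to 10 months. Germinal vesicle oocytes, stripped of cumulus cells, had been matured in vitro for 16 h with 10 μM quercetin, a plant flavonol dissolved in DMSO, in 3 pools or without quercetin in 3 control pools. Whether the control medium held DMSO is not given in the sources used here. Each pool combined 15 oocytes from 3 mice, and the Smart-seq HT kit was used for library construction. Neither the labels nor the study's methods say whether pools shared mice, so p-values measure only the spread between these pools.

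H3K9 methyltransferases write the mark, HP1 proteins bind it through their chromodomain and bring in further silencing factors, and demethylases remove it. SETDB1 is recruited by TRIM28, which zinc finger proteins guide to retrotransposons and imprinted loci. In the oocyte this machinery silences retrotransposons and marks pericentromeric heterochromatin, and TRIM28 of maternal origin protects imprints in the early embryo.

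The pools held 7880467 to 9938743 counts. At these depths 3 counts, the level taken as the floor, corresponded to 0.328 to 0.375 CPM, the count relative to the pool's total after scaling by the trimmed mean of M-values (TMM). No molecular identifiers are described for these libraries, so floors and intervals of shares cover counting error only. All 9 oocyte markers, among them *Gdf9* and *Zp3*, had counts in the pools, and their summed level was 15911 to 19786 CPM in control and 17512 to 19200 CPM in quercetin. The sum hides differences between single markers. Of the 9, 1 (*Gdf9*) was higher in every quercetin pool than in any control pool, against 5.43% of the genes tested. *Ooep* had a log2 fold change of -0.92 (SE 0.38) with overlapping groups. *Zp2* ran from 131 to 1554 CPM over the pools. Of 12 cumulus and granulosa markers, 3 (*Amh*, *Foxl2* and *Inhbb*) were at 0 in all pools. The summed level of these 12 was 63.2 to 78.0 CPM in control and 80.2 to 87.1 CPM in quercetin, without overlap. In 3 of the 12 (*Cyp19a1*, *Lhcgr* and *Tnfaip6*) every quercetin pool was higher than any control pool. The share of such genes among all those tested was 5.43%, a set that holds only *Cyp19a1* of these 3. *Lhcgr* and *Tnfaip6*, too low to be tested, had 0 counts in control and 2 to 8 in quercetin. Other markers of the list did not separate the groups. *Ptgs2* (mean 2.08 CPM in control, 1.31 in quercetin) and *Fshr* (1.33 and 1.01) had lower means in quercetin. *Has2* (4.18 and 4.33), *Inhba*, *Hsd3b1* and *Cyp11a1* had higher means, and the groups overlapped for each of these genes. Most of the sum was *Cyp19a1* (64.1 ± 5.34 CPM in control, 74.4 ± 1.44 CPM in quercetin, SD, n = 3 each). The 5 blood and immune markers summed to 3.14 to 3.83 CPM in control and 3.50 to 3.75 CPM in quercetin, with *Hbb-bs* and *Hba-a1* at 0. The part of these cell types in any difference below was not tested.

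*Suv39h2* (ENSMUSG00000026646) encodes an enzyme that trimethylates H3K9 in pericentromeric heterochromatin. It was the member with the clearest separation of the groups, as its selection on these values favours. Its read counts were 925, 729 and 670 in control pools 1 to 3. In quercetin pools 1 to 3 they were 376, 429 and 374. Every quercetin pool was below every control pool, and the quercetin pools lay close together while the control pools were spread over a wider range. On the CPM scale the level was 103, 87.3 and 75.1 in control (88.6 ± 14.2, SD, n = 3) and 47.0, 46.9 and 43.9 in quercetin (45.9 ± 1.78, SD, n = 3). The fitted difference was 1.93-fold lower in quercetin (log2 fold change -0.95, SE 0.17). As a description of where this places the gene, 150 of 11842 tested genes (1.27%) had a log2 fold change at or under that of *Suv39h2*. In pooled oocytes, fewer oocytes carrying a transcript and less of it per oocyte cannot be told apart.

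In GRCm38 the gene spans bases 3455815 to 3475031 of chromosome 2 and is read from the minus strand. Other annotated genes overlap 10.0% of its exon bases, all on the opposite strand, and *Dclre1c*, a DNA repair nuclease gene, accounts for 8.10%. Whether the counting used strand is not given in the sources used here. The counts of *Dclre1c* were 36, 60 and 42 in control and 24, 28 and 65 in quercetin, well under those of *Suv39h2* in each pool.

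The paralog *Suv39h1* (ENSMUSG00000039231), on the X chromosome from 8061171 to 8074760, encodes an enzyme of the same activity. It was counted 66, 66 and 69 times in control and 46, 68 and 96 times in quercetin. The control pools were nearly identical and the quercetin pools fell on both sides of them. The difference was small, with a log2 fold change of 0.09 (SE 0.29, 95% interval -0.57 to 0.75). An antisense gene, *Gm14820*, covers 14.6% of the *Suv39h1* exon bases, and its counts of 180, 241 and 167 in control and 169, 191 and 234 in quercetin were above those of *Suv39h1* in every pool, so some *Suv39h1* reads may not be its own.

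*Suv39h2* took most of the reads of the pair in all pools. Its share of the counts of both genes was 93.3% (91.6 to 94.8, exact 95% binomial interval), 91.7% (89.6 to 93.5) and 90.7% (88.3 to 92.7) in control pools 1 to 3. In quercetin it was 89.1% (85.7 to 91.9), 86.3% (83.0 to 89.2) and 79.6% (75.6 to 83.1). The share was lower in each quercetin pool than in any control pool, although the interval of quercetin pool 1 overlapped those of all control pools and that of quercetin pool 2 overlapped that of control pool 3. These are shares of counts, not scaled by exon length, which is 4410 bases for *Suv39h2* and 5270 bases for *Suv39h1*. This share contains the values on which *Suv39h2* was picked and is given without a test.

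*Setdb1* (ENSMUSG00000015697), which trimethylates H3K9 mainly outside pericentromeric repeats, was counted 448, 385 and 399 times in control. The quercetin counts were 295, 302 and 383. Quercetin pools 1 and 2 were under the control pools, and quercetin pool 3 (44.9 CPM) reached the lowest control pool (44.8 CPM). Its log2 fold change was -0.30 (SE 0.18, 95% interval -0.71 to 0.12). The ratio of *Suv39h2* to *Setdb1* counts was 2.06, 1.89 and 1.68 in control and 1.27, 1.42 and 0.977 in quercetin, lower in each quercetin pool than in any control pool. Of the 31-base words of *Setdb1* transcripts, 12.9% also occur in other genes. The gene sharing most of them, *Gm4349* (9.13%, named after its values were seen), had 8 to 25 counts per pool. Summed over *Suv39h1*, *Suv39h2* and *Setdb1*, the level of the genes for H3K9 trimethylation was 161, 141 and 128 CPM in control and 89.6, 87.4 and 100 CPM in quercetin. The ratio and the sum contain the values on which *Suv39h2* was picked and add no support to its difference.

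*Ehmt1* (ENSMUSG00000036893) and *Ehmt2* encode GLP and G9a, which form the heterodimer that places mono- and dimethylation on H3K9 in euchromatin. *Ehmt1* counts were 290, 108 and 140 in control. They were 226, 239 and 260 in quercetin. The quercetin pools were alike, and control pool 1 was above all of them while control pools 2 and 3 were below. The log2 fold change was 0.47 (SE 0.33, 95% interval -0.27 to 1.22), with 0.98 without control replicate 1 and 0.23 without control replicate 2. The spread within groups (SD 0.49 on the log2 CPM scale) was larger than in 87.8% of the 500 tested genes nearest in level. *Ehmt2* (ENSMUSG00000013787) was counted 3, 14 and 7 times in control and 7, 7 and 4 times in quercetin and did not pass the filter on low counts. Its mRNA was thus close to the detection limit in both groups, although that of its partner was readily counted.

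**Figure D1:**
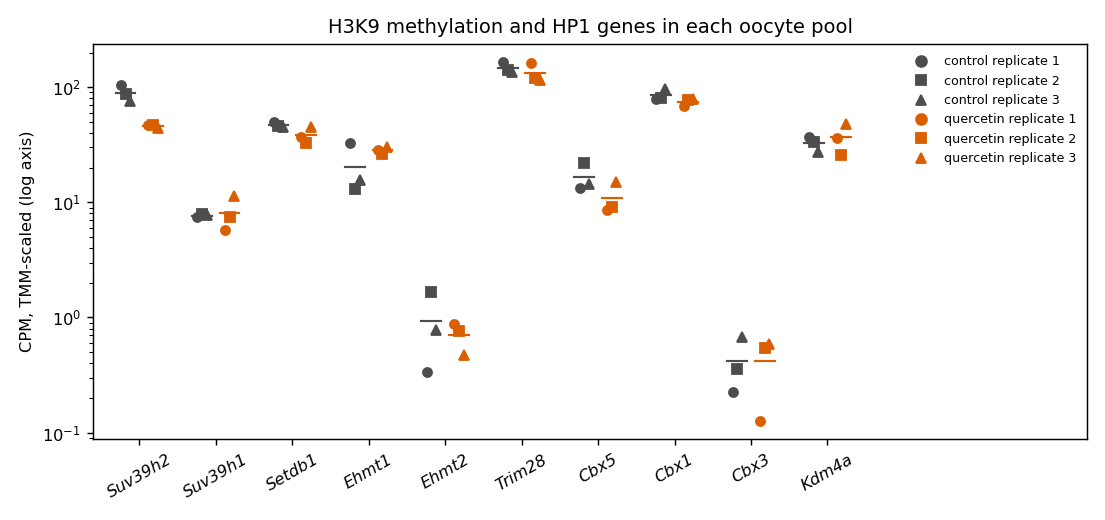
Level of the 10 genes in each oocyte pool, in CPM scaled by TMM on a log axis. Points are single pools (3 control, 3 quercetin), symbols mark the replicate number and bars mark group means. The *Suv39h2* pools separate by group, from 75.1 to 103 CPM in control against 43.9 to 47.0 CPM in quercetin.

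*Trim28* (ENSMUSG00000005566), the scaffold that brings SETDB1 and HP1 to target loci, had the most counts of the 10 genes. Control pools held 1480, 1186 and 1209 counts and quercetin pools 1285, 1105 and 976. Quercetin pool 1 lay within the control range and pools 2 and 3 under it on the CPM scale. Its log2 fold change was -0.16 (SE 0.17, 95% interval -0.55 to 0.23).

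Among the HP1 genes, *Cbx1* (ENSMUSG00000018666), which encodes HP1β, was counted 712, 679 and 856 times in control and 547, 714 and 668 times in quercetin. After TMM scaling the levels were 79.6, 81.3 and 96.0 CPM in control and 68.3, 78.1 and 78.4 CPM in quercetin, a narrow gap without overlap that closed when CPM were taken by library size alone. The log2 fold change was -0.19 (SE 0.16, 95% interval -0.54 to 0.16). Its spread within groups was small (SD 0.13 on the log2 CPM scale, larger than in 15.4% of genes of like level).

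*Cbx5* (ENSMUSG00000009575), which encodes HP1α, was counted 119, 185 and 129 times in control and 68, 84 and 129 times in quercetin. Quercetin pools 1 and 2 were under the control range, and quercetin pool 3 was inside it. The log2 fold change of -0.60 (SE 0.31, 95% interval -1.30 to 0.09) was the lowest after that of *Suv39h2*, and it was -0.34 without control replicate 2 and -0.91 without quercetin replicate 3. Summed over *Cbx1*, *Cbx3* and *Cbx5*, the level was 93.2, 104 and 111 CPM in control and 77.0, 87.8 and 94.1 CPM in quercetin, so the groups overlapped.

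The demethylase *Kdm4a* (ENSMUSG00000033326), which removes H3K9 trimethylation and in the oocyte keeps it from domains marked at lysine 4, was counted 328, 281 and 245 times in control. The quercetin counts were 288, 237 and 410. Quercetin pool 3 was the highest of the 6 pools and quercetin pool 2 the lowest on the CPM scale, so the groups overlapped fully. On the log2 scale the difference was 0.17 (SE 0.25, 95% interval -0.40 to 0.74).

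Of the 10 genes, 8 passed the filter. Apart from *Suv39h2*, 0 of the 7 tested members passed an adjusted p of 0.05 by the quasi-likelihood test of edgeR (Benjamini-Hochberg, over every tested gene), with adjusted p from 0.988 to 0.995. Over all 11842 tested genes 0 were called at this threshold (0%), and the smallest adjusted p was 0.0730. By unadjusted p under 0.05, 0 of the 7 members were called, against 477 of all tested genes (4.03%). DESeq2, edgeR's likelihood ratio test and limma-voom also called 0 of these members. In the exact permutation test, in which 3 pools against 3 cannot go under p = 0.1, *Cbx1* reached p = 0.1, and *Setdb1* had p = 0.2 and *Cbx5* p = 0.3. Without overlap between groups, 1 of the 7 members (*Cbx1*) was lower in quercetin and 0 were higher, against 5.15% and 5.43% of all tested genes. The 7 members had 4 negative and 3 positive log2 fold changes, with a median of -0.16 beside -0.03 over all tested genes. The intervals do not show that these genes were alike in the groups: that of *Cbx5* reached down to -1.30 and that of *Ehmt1* up to 1.22.

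**Figure D2:**
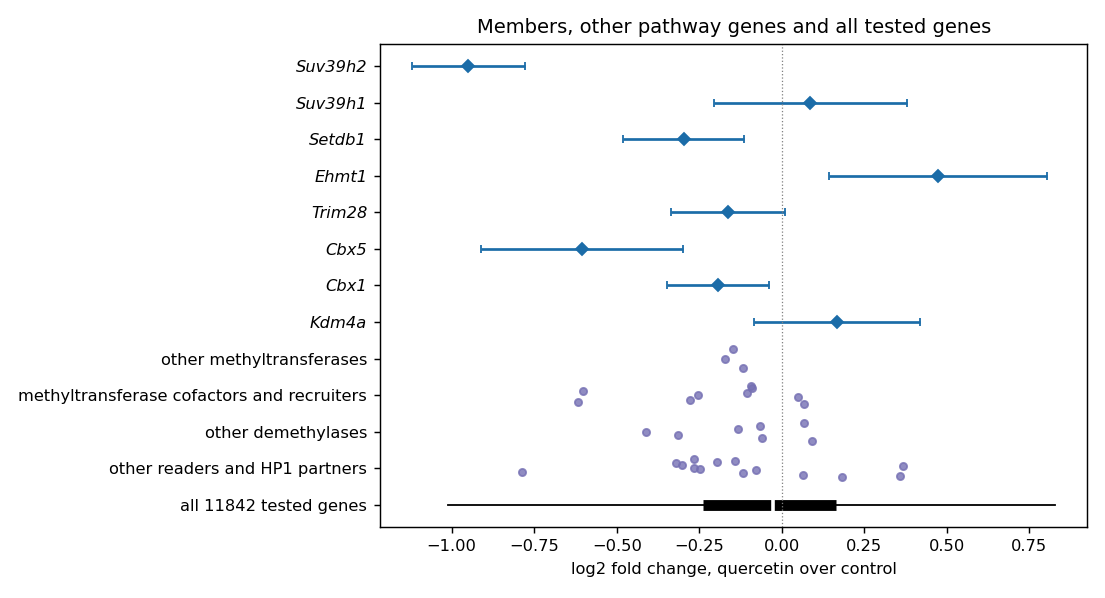
Log2 fold change of quercetin over control from the edgeR fit. Diamonds with bars are members ± SE, points are the other tested pathway genes by list, and the bottom row shows the 1st to 99th percentile (line), the 25th to 75th percentile (box) and the median (white mark) of all 11842 tested genes. *Suv39h2* (-0.95), whose direction chose it, lies left of the other members, and the bars of *Suv39h1*, *Trim28* and *Kdm4a* cross 0.

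Levels between genes were compared as CPM per kilobase of exon. In order, the means over all 6 pools were 33.6 for *Trim28*, 18.8 for *Cbx1*, 15.3 for *Suv39h2*, 6.22 for *Setdb1*, 5.99 for *Kdm4a*, 3.00 for *Ehmt1*, 1.53 for *Cbx5*, 1.501 for *Suv39h1*, 0.149 for *Ehmt2* and 0.0699 for *Cbx3*. The ranges over pools did not overlap between *Trim28* and *Cbx1*, *Suv39h2* and *Setdb1*, *Kdm4a* and *Ehmt1*, or *Suv39h1* and *Ehmt2*. The other neighbours in this order overlapped. *Suv39h2* was level with *Cbx1* in control (20.1 ± 3.22 and 20.05 ± 2.11 CPM per kilobase, SD, n = 3) and below it in quercetin (10.4 ± 0.403 and 17.5 ± 1.34, SD, n = 3). This depends on the length used: per kilobase of the longest transcript the means over all pools were 33.8 for *Cbx1* and 15.5 for *Suv39h2*. Even in quercetin its lowest pool (9.95 CPM per kilobase) was above the highest *Setdb1* pool (7.31). By the reads assigned to each gene, all pools of *Suv39h2* lay above those of *Suv39h1*, all pools of *Ehmt1* above those of *Ehmt2*, and all pools of *Cbx1* above those of *Cbx5*. *Cbx3* was not placed among its paralogs in this way, because near-identical copies of it, described next, also took reads in the pools numbered 2 and 3. In the pools numbered 1, *Cbx3* and its annotated copies summed to 9 counts each. *Cbx5* had 119 counts in control pool 1 and 68 in quercetin pool 1.

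**Figure D3:**
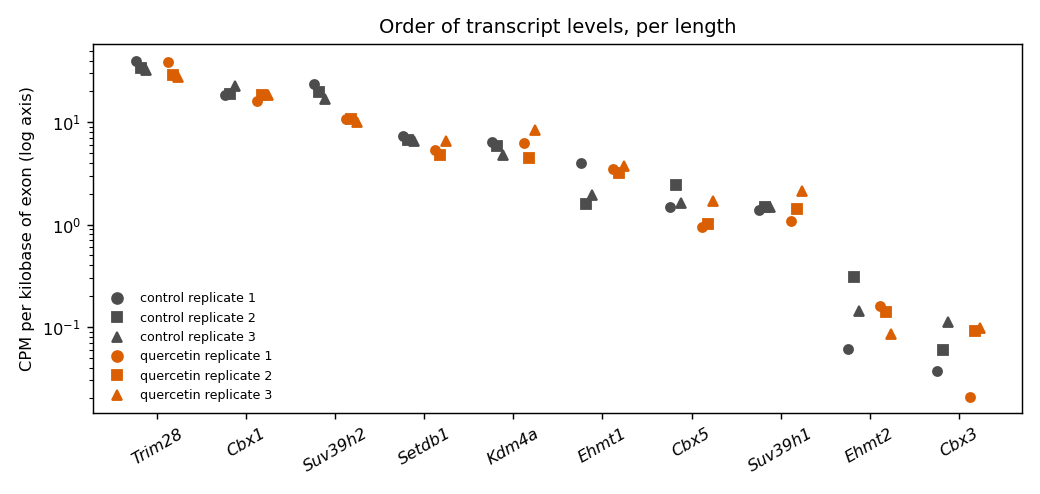
Levels in CPM per kilobase of exon on a log axis, with genes ordered by their mean over 6 pools. Grey symbols are control pools, orange symbols are quercetin pools, and symbol shapes mark replicate numbers. The order runs from 33.6 for *Trim28* to 0.0699 for *Cbx3*, with *Ehmt2* and *Cbx3* far below the rest.

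*Cbx3* (ENSMUSG00000029836), which encodes HP1γ, was nearly uncounted, with 2, 3 and 6 reads in control and 1, 5 and 5 in quercetin. Its mouse genome copies bear on that value. Processed pseudogenes hold its coding sequence without introns, and of the 552 coding bases *Cbx3-ps6* differs at 1 (A390G) and *Cbx3-ps7* at 2 (A390G and C399T). Positions are counted from 1 at the first base of the start codon. The stretch from coding base 361 to 420 is printed to show how little separates the gene from the copies, with positions 390 and 399 in capitals. It was taken from the transcript sequences of GENCODE release M21. By their annotation it lies in GRCm38 at chr6:51481754-51481813 (plus strand) for *Cbx3*, chr14:73955132-73955191 (minus strand) for *Cbx3-ps6* and chr1:58647048-58647107 (plus strand) for *Cbx3-ps7*.
Cbx3: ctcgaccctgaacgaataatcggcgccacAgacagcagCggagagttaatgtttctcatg
Cbx3-ps6: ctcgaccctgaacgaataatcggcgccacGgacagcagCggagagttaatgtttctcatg
Cbx3-ps7: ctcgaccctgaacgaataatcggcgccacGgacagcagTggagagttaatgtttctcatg

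Of the 31-base words of the *Cbx3* coding sequence, 94.1% also occur in such copies, against 30.4% over the whole transcript *Cbx3-201* of 1889 bases. A 31-base stretch of the coding sequence could therefore seldom be assigned to *Cbx3* alone, while the rest of the transcript is largely its own. A longer read covers more positions that differ, and how reads were assigned was not tested.

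The copies were counted in some pools and not in others. *Cbx3-ps6* had 1, 99 and 101 counts in control and 1, 152 and 106 in quercetin. *Cbx3-ps7* had 1, 66 and 79 counts in control and 0, 116 and 62 in quercetin. *Gm49164*, a long noncoding RNA gene annotated over *Cbx3-ps6* on the opposite strand (532 shared bases, 96.4% of the copy), had 5, 370 and 349 counts in control and 3, 484 and 367 in quercetin. In both groups the pool numbered 1 was near 0 and the pools numbered 2 and 3 were high, so the split followed the replicate number and not quercetin. The 3 genes together held 0.783, 64.1 and 59.3 CPM in control and 0.4998, 82.2 and 62.8 CPM in quercetin. Other *Cbx3* pseudogenes (6 of them, *Cbx3-ps1* to *Cbx3-ps5* and *Cbx3-ps8*) had at most 3 counts in any pool.

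A split as strong as this was rare in the table. Weaker splits of the same direction were not counted and occurred in other genes, named here after their values were seen. *Zp2* was at 223 and 131 CPM in the pools numbered 1 and at 628 to 1554 CPM in the others. *Zp1* was at 172 and 165 CPM against 359 to 536 CPM. Of 53465 genes, 24476 had at least 1 count in any pool, and most genes of the table could not meet the criteria used here. In all, 3 had at most 5 counts in both pools numbered 1 and at least 50 in each other pool. These were *Cbx3-ps6*, *Cbx3-ps7* and *Gm49164*. They are not independent, since they share nearly the same sequence and *Gm49164* overlaps 96.4% of *Cbx3-ps6*. Whether the same reads were counted for several of them was not tested. The opposite split was found in 0 genes. With a milder criterion, a CPM at least 5 times higher in every pool numbered 2 or 3, 4 genes were found, the fourth being *Cpne1*, and 1 gene, *Fam169a*, was at least 5 times higher in both pools numbered 1. The copies and these criteria were chosen after their values were seen. *Cbx1* and *Cbx5* did not show the split. Whether the reads on the copies came from *Cbx3* mRNA, and why they were missing from the pools numbered 1, was not tested.

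**Figure D4:**
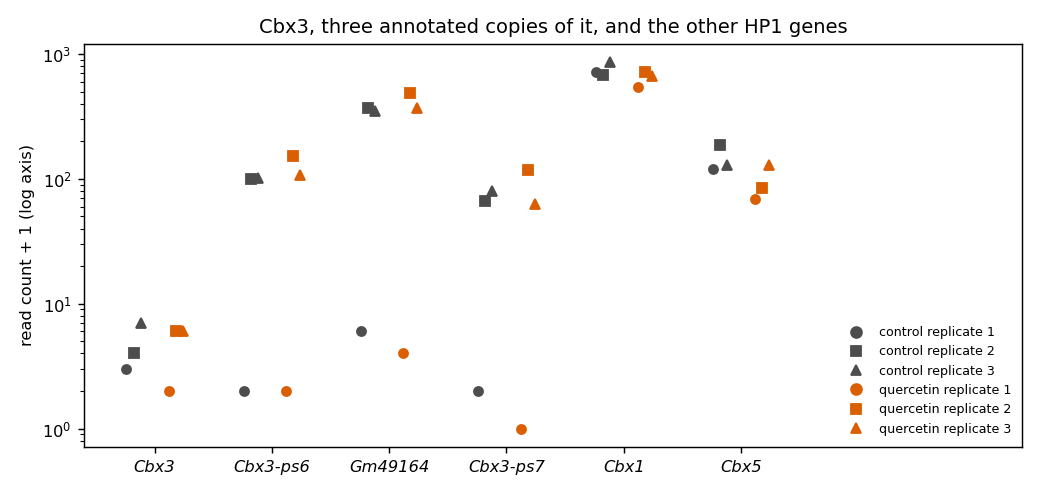
Read counts plus 1, on a log axis, of *Cbx3*, 3 annotated genes that hold a copy of its coding sequence, and the other HP1 genes *Cbx1* and *Cbx5*. Points are single pools, with circles for the pools numbered 1. The circles of *Cbx3-ps6*, *Gm49164* and *Cbx3-ps7* lie at 0 to 5 counts, and the other pools of these genes at 62 to 484.

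Beyond the members, 39 further genes of the pathway were followed, of which 33 passed the filter. Of these, 0 were called at an adjusted p of 0.05 by edgeR's quasi-likelihood test and 0 at an unadjusted p under 0.05, and DESeq2 called 0. The log2 fold change was negative in 25 (75.8%) and positive in 8, with a median of -0.13, beside 6352 negative values (53.6%) and a median of -0.03 over all tested genes. Without overlap between groups, 2 of 33 were lower and 0 higher, against the 5.15% and 5.43% of all tested genes.

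The other methyltransferases had 3 of 4 genes tested, all 3 with negative values between -0.17 and -0.12. *Prdm2*, a PR domain protein, had the highest mean CPM of the list over the 6 pools, a scale that does not correct for length, at 17.2 ± 2.80 CPM in control and 15.3 ± 4.33 CPM in quercetin (SD, n = 3). All 9 cofactors and recruiters were tested, with 7 negative and 2 positive values and a median of -0.10. *Smarcad1*, a chromatin remodeler that works with TRIM28, was named by the same measure and was at 120 ± 6.01 CPM in control and 125 ± 18.8 CPM in quercetin (SD, n = 3). The groups overlapped for both genes.

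Of the other demethylases, 7 of 10 were tested, with 5 negative and 2 positive values and a median of -0.07. *Kdm7a*, which removes dimethylation and had the highest mean CPM of this list, was at 235 ± 36.6 CPM in control and 251 ± 15.8 CPM in quercetin (SD, n = 3). The *Kdm4a* paralogs *Kdm4b* and *Kdm4c* had at most 6 counts in any pool and *Kdm4d* was at 0 in all, which allows up to 0.328 to 0.375 CPM per pool. *Kdm4a* was thus the KDM4 gene counted in these oocytes at more than a few reads.

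The other readers and HP1 partners had 14 of 16 genes tested, 10 negative and 4 positive, with a median of -0.17. *Lbr*, the inner nuclear membrane receptor that binds HP1, had the highest mean CPM of the list, with 8321, 5340 and 6909 counts in control and 7858, 10037 and 7897 in quercetin. Its log2 fold change was 0.36 (SE 0.17), and quercetin pool 3 lay below control pool 1, so the groups overlapped by a small margin. By DESeq2's size factors they did not overlap and *Lbr* was higher in quercetin. *Cdyl*, a chromodomain corepressor, was counted 319, 326 and 331 times in control and 254, 260 and 260 times in quercetin (log2 fold change -0.30, SE 0.17). *Uhrf1*, which reads H3K9 methylation and guides maintenance of DNA methylation, was counted 1207, 973 and 1098 times in control and 826, 909 and 930 times in quercetin (log2 fold change -0.27, SE 0.14). *Cdyl* and *Uhrf1* were the 2 genes of the lists whose groups did not overlap after TMM scaling. Of their 31-base words, 8.16% for *Cdyl* and 24.2% for *Uhrf1* also occur in other genes, and how such reads were assigned was not tested. By library size alone *Pogz*, a zinc finger partner of HP1, was also lower in quercetin without overlap. *Adnp* was listed at 0 in all pools, and 82.1% of its exon bases are shared on the same strand with the annotated gene *Gm20716*.

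Quercetin pool 3 was often the highest quercetin pool in this pathway. It was the highest of the 3 for 6 of the 7 tested members other than *Suv39h2*, and for 21 of the 33 other pathway genes (63.6%). Over all tested genes the share was 35.9%. Some margins among the members were narrow, as in *Cbx1* (78.4 against 78.1 CPM in quercetin pool 2) and *Ehmt1* (30.5 against 28.2 CPM in quercetin pool 1). The exception was *Trim28*, for which quercetin pool 3 was the lowest. *Atrx*, a remodeler that places H3.3 at heterochromatin, had 2961, 3108 and 5544 counts in quercetin and 4651, 4056 and 4172 in control, and is named after its values were seen. *Suv39h2* did not share this, since quercetin pool 3 was its lowest quercetin pool on the CPM scale. Quercetin pool 3 was singled out after its high values in these genes were seen. Leaving it out therefore tends to lower their fold changes, and the values that follow test nothing. Without quercetin pool 3, 6 of the 7 members had negative values, with a median of -0.22 in place of -0.16. The median of the 33 pathway genes moved from -0.13 to -0.44, with 25 negative in either case, while that of all tested genes was -0.03 with the pool and -0.02 without it. *Suv39h1* and *Kdm4a* changed sign, to -0.22 and -0.0749.

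The genes whose profile over the 6 pools was most like that of *Suv39h2* were sought by the root mean square difference of log2 CPM centred on each gene's mean, over 7919 genes with a mean of at least 5 CPM. They were *Gm5809* (difference 0.117), *Tor1aip1* (0.135) and *Ptp4a1* (0.135). *Gm5809* is a processed pseudogene that shares 68.9% of its words with *Tmem97*. *Tor1aip1*, which encodes the inner nuclear membrane protein LAP1, was counted 214, 148 and 167 times in control and 99, 112 and 83 times in quercetin. *Ptp4a1*, a phosphatase gene, was counted 2336, 1560 and 1788 times in control and 948, 1016 and 770 times in quercetin. It shares 70.3% of its words with a second annotated *Ptp4a1* gene that is not in the count table. It also shares 8.89% with the pseudogene *Gm8783*, which had 690, 460 and 612 counts in control and 799, 910 and 643 in quercetin. How reads were assigned among these genes was not tested. All 3 were highest in control pool 1 and lower in every quercetin pool than in any control pool, as the measure of likeness to *Suv39h2* favours.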

How the data were processed

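Smart-seq HT libraries of 6 oocyte pools were sequenced by the authors, who aligned the reads to GRCm38.91 with Hisat2 per the paper's methods. The submitters' processing notes also name CASAVA 1.8 and TopHat2 2.0.6. The authors deposited counts, the number of reads per Ensembl gene and pool, without normalization or pooling. The counting program and its treatment of strand and of reads matching several genes are not given in the sources used here, which limits values of overlapping genes and of genes with near-identical copies.

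Groups and replicate numbers came from the sample titles. Symbols, positions and exon lengths came from GENCODE release M21 (GRCm38), which gave symbols to 53274 of 53465 genes. At least 1 count was found for 24476 genes, and the 11842 that passed filterByExpr (minimum count 10) were fitted with edgeR 4.0.16 in R 4.3.3 (TMM, glmQLFit, glmQLFTest, no covariate, Benjamini-Hochberg over all tested genes). The script was tested on simulated counts. For single members, a two-sided test by exact permutation of the pools was run on log2(CPM + 0.5). Log2 CPM used a prior count of 2. Sequence sharing was measured in 31-base words, and pseudogenes were aligned with edlib 1.3.9.post1 in Python 3.11.15. Figures were drawn with matplotlib 3.10.9.

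The members and lists were chosen with earlier results of these data known. All members are named, as are, of the other pathway genes, those without overlap between groups and the one with the highest mean CPM of each list, the 3 genes most like *Suv39h2*, and genes sharing at least 10% of a member's words. The fit was repeated with DESeq2 1.42.0, voom of limma 3.58.1, the likelihood ratio test of edgeR, other scalings and filters, unadjusted p, leaving out each pool, and the replicate number as a block. Leaving out both pools numbered 1 and the list counts without quercetin pool 3 were added after seeing the data. Protein sequences were not used here.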

Additional observations from a re-analysis of the deposited data

How the results depend on the processing

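The log2 fold change of *Suv39h2* ran from -1.05 to -0.82 over the 15 alternatives, and its groups did not overlap by TMM, library size or DESeq2's size factors. *Suv39h2* was picked on these same counts, so neither the range nor the lack of overlap adds support to its difference. All alternatives called 0 of the other members and 0 of the other pathway genes. *Suv39h1* (-0.22) and *Kdm4a* (-0.0749) reversed without quercetin replicate 3, and the cause was not tested. With 1 pool left out they ran from -0.22 to 0.28 and from -0.0749 to 0.37, while *Ehmt1* ran from 0.23 to 0.98 and *Cbx5* from -0.91 to -0.34 without a change of sign. The number of genes called over the whole table was 0 in the fit as reported, 17 with DESeq2 (which gave an adjusted p to 7930 genes), 18 with the likelihood ratio test, 3 with only 1 count in total required, 477 by unadjusted p, from 0 to 7 with 1 pool left out (7 without quercetin replicate 1, 6 without quercetin replicate 3, 2 without control replicate 1 or 2, 1 without quercetin replicate 2 and 0 without control replicate 3), and 5 without both pools numbered 1. Scaling by library size moved the median log2 difference of all genes from -0.03 to -0.11, so it lowered every fold change by a similar amount. Levels per kilobase of the longest transcript in place of all exons were 2.54 for *Suv39h1*, 15.5 for *Suv39h2*, 7.54 for *Setdb1*, 4.09 for *Ehmt1*, 43.1 for *Trim28*, 33.8 for *Cbx1*, 0.143 for *Cbx3* and 7.43 for *Kdm4a*. With the replicate block *Suv39h2* was at -0.94 and 0 genes were called. Pools of the same number correlated in their deviations from the group means at 0.296, 0.101 and -0.03 for numbers 1, 2 and 3, so the numbers do not pair the pools throughout, and in 1 of 3 numbers the best match was its own. At 1 to 14 counts, differences in *Cbx3* and *Ehmt2* were not detectable at this depth.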
